A study of Mus musculus with 2 samples.

Results

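Heat-shock chaperones are the proteins that cells use to fold other proteins and to keep damaged ones from clumping. The group here holds 10 genes, taken by symbol from the 32285 genes of the tables. Of these, 6 are classed as stress-induced (Hspa1a, Hspa1b, Dnajb1, Hsph1, Hspb1 and Hsp90aa1) and 4 as constitutive (Hsp90ab1, Hspa8, Hspd1 and Hspe1). The split follows textbook knowledge of the genes.

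The heat-shock response works through HSF1, a transcription factor held inactive by chaperones in unstressed cells. When misfolded proteins draw those chaperones away, HSF1 forms trimers and binds heat-shock elements, inverted repeats of a short GAA unit, in front of the inducible genes. HSP70 proteins then hold unfolded stretches of protein, HSP40 proteins deliver the client and start the ATP cycle, and HSP110 proteins exchange the nucleotide. HSP90 finishes the folding of kinases and receptors, and the HSP60 and HSP10 pair folds proteins inside mitochondria.

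The cells came from skin tumors of B16F10-OVALBUMIN/VEGFC cells. These are mouse melanoma cells that also make ovalbumin (a foreign antigen often used in such models) and the lymphatic growth factor VEGF-C. Host mice were Ifngr1iProx1, called Cre plus, or Ifngr1WT, called Cre minus. Ifngr1 encodes the receptor chain that binds interferon-γ, and the allele name carries Prox1, a gene used to direct Cre to lymphatic endothelium. Mice of both genotypes received the cells intradermally, tumors were taken on day 15, 3 were pooled for each genotype, and DAPI-, CD31+, CD45- cells were sorted after enzymatic digestion with collagenase and DNase. The labels give neither the age of the mice nor a Cre-inducing agent. From each pool came a single 3′ library of single cells. There is thus no replicate, no test and no p-value, and a difference between genotypes cannot be told apart from a difference between pools or runs. Levels below are UMIs, that is counted RNA molecules, per 1000000 UMIs of the class (CPM), and because each molecule is counted by its 3′ end they need no scaling to gene length. Brackets give 95% intervals that cover counting error only.

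Cre plus cells gave 66704257 UMIs in 2491 barcodes, against 76967583 UMIs in 2502 barcodes from Cre minus cells. After a filter on genes and mitochondrial UMIs, 1782 Cre plus and 1552 Cre minus barcodes were kept, with medians of 13644.5 and 12453 UMIs. The libraries shared 1 barcode sequence. Barcodes were gated by marker genes into lymphatic endothelial (LEC-like, 811 Cre plus and 214 Cre minus), blood endothelial (BEC-like, 198 and 231), melanoma-like (487 and 822), macrophage-like (47 and 68) and pericyte and fibroblast-like (31 and 21) barcodes. Melanoma-like barcodes made up 27.3% of kept Cre plus and 53.0% of kept Cre minus barcodes, although the sort was for CD31+, CD45- cells. All 9 LEC markers were detected in LEC-like barcodes of both libraries, and the 10 genes that led that class held 3 of them in Cre plus against 4 in Cre minus. In macrophage-like Cre minus barcodes the neutrophil genes S100a8 and S100a9 stood among the leading 10 genes beside 2 macrophage markers. Ifngr1, the targeted gene, had 29.9 CPM in Cre plus against 48.1 CPM in Cre minus LEC-like barcodes (log2 ratio -0.68 [-1.003, -0.35]), and 178 and 152 CPM in BEC-like barcodes. It was lower in Cre plus macrophage-like barcodes too, with 92.4 CPM against 126 CPM in Cre minus (-0.45 [-0.73, -0.17]). In melanoma-like (-0.17 [-0.35, 0.01]) and pericyte and fibroblast-like barcodes (0.24 [-0.46, 0.98]) the interval took in 0. Which part of Ifngr1 is deleted is not given in the labels, so a 3′ count may not read the deletion.

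Promoters of the members are shown first, because the inducible HSP70 pair has nearly the same promoter and yet the pair differed between cell classes, and because the windows of Hspd1 and Hspe1 overlap. Of the 10 members, 7 had an entry in the RefSeq promoter table (GRCm38.p6, the assembly that mm10, named in the submitters' processing notes, also denotes), each a window of 250 bases before and 50 bases from the start site. Capitals mark GAANNTTC or TTCNNGAA, the paired units of a heat-shock element, searched on both strands (each is its own reverse complement). The 250 bases before the start site of 4 members follow, from chr17:34972157-34972406 on the minus strand (Hspa1a), chr17:34959239-34959488 on the minus strand (Hspa1b), chr5:135887669-135887918 on the plus strand (Hspb1) and chr1:55087898-55088147 on the plus strand (Hspe1).
Hspa1a: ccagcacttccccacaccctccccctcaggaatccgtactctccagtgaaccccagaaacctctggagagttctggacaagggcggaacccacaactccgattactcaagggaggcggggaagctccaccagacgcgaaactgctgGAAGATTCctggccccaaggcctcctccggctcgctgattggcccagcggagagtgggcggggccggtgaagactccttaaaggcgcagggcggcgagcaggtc
Hspa1b: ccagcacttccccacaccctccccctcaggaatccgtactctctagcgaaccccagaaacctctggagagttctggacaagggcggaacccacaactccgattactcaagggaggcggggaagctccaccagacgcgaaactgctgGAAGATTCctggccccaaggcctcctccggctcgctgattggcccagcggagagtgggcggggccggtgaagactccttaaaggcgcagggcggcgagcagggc
Hspb1: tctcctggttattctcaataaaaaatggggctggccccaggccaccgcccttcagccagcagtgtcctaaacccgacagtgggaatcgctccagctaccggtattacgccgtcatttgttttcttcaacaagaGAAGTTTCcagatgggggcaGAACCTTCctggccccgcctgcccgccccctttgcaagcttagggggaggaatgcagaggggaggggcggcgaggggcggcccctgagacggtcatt
Hspe1: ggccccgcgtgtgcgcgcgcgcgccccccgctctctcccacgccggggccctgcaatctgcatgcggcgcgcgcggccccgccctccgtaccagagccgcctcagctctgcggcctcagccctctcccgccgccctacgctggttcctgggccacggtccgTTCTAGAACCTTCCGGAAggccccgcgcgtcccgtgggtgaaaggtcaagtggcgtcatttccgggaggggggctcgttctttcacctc

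The Hspa1a and Hspa1b windows differed at 4 of 300 bases. Counted from 1 at the far end of the window, with the Hspa1a base first, these are C44T, T47C, T249G and C276T. None of the 4 lies in the capitals, and both windows hold 1 GAANNTTC, which begins 104 bases before the start site. Hspb1 holds 2 such pairs, which begin 117 and 97 bases before its start. Hspe1 holds 3 overlapping pairs that make longer runs, beginning 89, 84 and 79 bases before its start. The window of the second RefSeq start site of Hspd1, on the opposite strand, shares 285 of its bases with the Hspe1 window and holds the same 3 pairs. Hsph1 holds 3 pairs in the window of its first RefSeq start site, of which 1 begins 33 bases before the start and the others 36 and 41 bases after it. The windows of both RefSeq start sites of Dnajb1 and of the first of Hspd1 hold none. Of the 10 windows of the 7 members, 7 held a pair and 4 a run of 3 units (GAANNTTCNNGAA or TTCNNGAANNTTC). By member, 6 held a pair and 3 a run. The windows with a run are both of Hsph1, which overlap and hold the same 3 pairs, and the overlapping ones of Hspe1 and Hspd1. These are therefore not counts of separate sequences. Among all 32851 windows of the table, 15.1% hold a pair and 0.603% a run of 3 units. A match is a match of letters and was not tested as a binding site.

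On mm10 (GENCODE M21), Hspa1b lies on chromosome 17 at 34956436-34959238 and Hspa1a at 34969190-34972156, both on the minus strand, with 9951 bases between them. Their coding parts were identical at 99.4% of alignment positions, with gaps counted as positions. The parts after the stop codon, which 3′ libraries mostly read, are 810 bases long in Hspa1a and 643 in Hspa1b. These were identical at 414 of 875 alignment positions (47.3%), a share that the gaps from unequal lengths lower. Reads that fall in the coding part may not be assigned to one of the pair, so their split is less certain than their sum. Hspd1 at 55077835-55088243 and Hspe1 at 55088132-55091307 of chromosome 1 point away from each other and overlap by 112 bases. The annotation also names 5 pseudogenes of Hspd1 and 6 of Hspe1, whose reads could be confused with the parent genes. Dnajb1 lies on chromosome 8 at 83608193-83612653 and Hspa8 on chromosome 9 at 40800984-40810087, both on the plus strand. Hspb1 is at 135887919-135889563 (plus strand) and Hsph1 at 149614287-149636376 (minus strand) of chromosome 5. Hsp90aa1 is on chromosome 12 at 110690605-110702728 and Hsp90ab1 on chromosome 17 at 45567775-45573271, both on the minus strand.

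Hspa1a and Hspa1b encode the inducible HSP70 protein that appears when cells are stressed. Hspa1b was higher in Cre plus in both endothelial classes, and both genes had their highest levels outside the endothelium. Hspa1b had 18.0 CPM [16.1, 20.2] in Cre plus against 3.55 CPM [1.43, 7.31] in Cre minus LEC-like barcodes. That is a log2 ratio of 2.35 [1.29, 3.67], 5.08-fold higher in Cre plus, from 307 and 7 UMIs. Hspa1a had 5.64 CPM in Cre plus against 3.04 CPM in Cre minus LEC-like barcodes, from 96 and 6 UMIs, and its log2 ratio of 0.89 [-0.28, 2.37] took in 0. In the same barcodes the 13 pericyte and fibroblast markers, of which 11 and 5 were detected, summed to 7.93 CPM in Cre plus against 9.12 CPM in Cre minus. The 12 T and NK markers had 8 UMIs in Cre plus against 0 in Cre minus, and the 7 red cell markers, all detected, 909 and 349 CPM. The melanoma markers, with 10 and 9 of 10 detected, had 73.3 CPM in Cre plus against 138 CPM in Cre minus. The macrophage markers, with 13 of 14 detected in both, had 577 and 601 CPM, of which Mrc1 made up 89.1% and 82.0%. Their part in the ratios was not tested.

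In BEC-like barcodes both genes were higher in Cre plus. Hspa1b had 29.9 CPM in Cre plus against 5.43 CPM in Cre minus (log2 ratio 2.46 [1.73, 3.28]). Hspa1a had 23.3 CPM in Cre plus against 6.39 CPM in Cre minus (1.87 [1.17, 2.64]). The intervals of the 2 libraries did not overlap for either gene. These UMIs lay in few barcodes, 15 with Hspa1a in Cre plus against 3 in Cre minus, and 22 with Hspa1b against 3. For Hspa1a, 1 Cre plus barcode alone held 41 of the 103 UMIs and 1 Cre minus barcode 15 of the 20. All 17 Hspa1b UMIs of Cre minus came from 3 barcodes, while the intervals treat UMIs as separate counts.

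In melanoma-like barcodes the pair parted. Hspa1b had 8.86 CPM in Cre plus against 7.80 CPM in Cre minus, from 325 and 464 UMIs. Hspa1a had 1 UMI in Cre plus but 17 UMIs in Cre minus, although this class was the deepest, with 36672540 and 59495184 UMIs. Hspa1a made up 0.307% [0.00777, 1.70] of the pair's UMIs in Cre plus against 3.53% [2.07, 5.60] in Cre minus melanoma-like barcodes. Its share of the pair was 43.8% in Cre plus against 54.1% in Cre minus BEC-like barcodes, and 48.5% and 52.3% in macrophage-like barcodes. In LEC-like barcodes it was 23.8% [19.7, 28.3] in Cre plus against 46.2% [19.2, 74.9] in Cre minus. With 1 UMI, the Hspa1a ratio in melanoma-like barcodes, a log2 of -3.39 [-8.77, -0.72], has little weight, and 10 of the 17 Cre minus UMIs came from 1 barcode.

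Of the 5 classes compared, the macrophage-like and the pericyte and fibroblast-like barcodes had the highest levels of Hspa1a and Hspa1b. Hspa1a had 81.8 CPM in both libraries in macrophage-like barcodes, and Hspa1b 86.8 CPM in Cre plus against 74.8 CPM in Cre minus. In pericyte and fibroblast-like barcodes Hspa1a had 93.9 CPM in Cre plus against 98.2 CPM in Cre minus, and Hspa1b 139 and 90.8 CPM. These Hspa1a levels rest on 133 UMIs in 18 of 31 Cre plus barcodes, but on 53 UMIs in 4 of 21 Cre minus barcodes. The order of Hspa1b levels in Cre plus ran from pericyte and fibroblast-like over macrophage-like, BEC-like and LEC-like to melanoma-like barcodes, with no overlap of the counting intervals. In Cre minus the intervals of the first and second class overlapped, and those of the melanoma-like, BEC-like and LEC-like classes overlapped too.

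**Figure D1:**
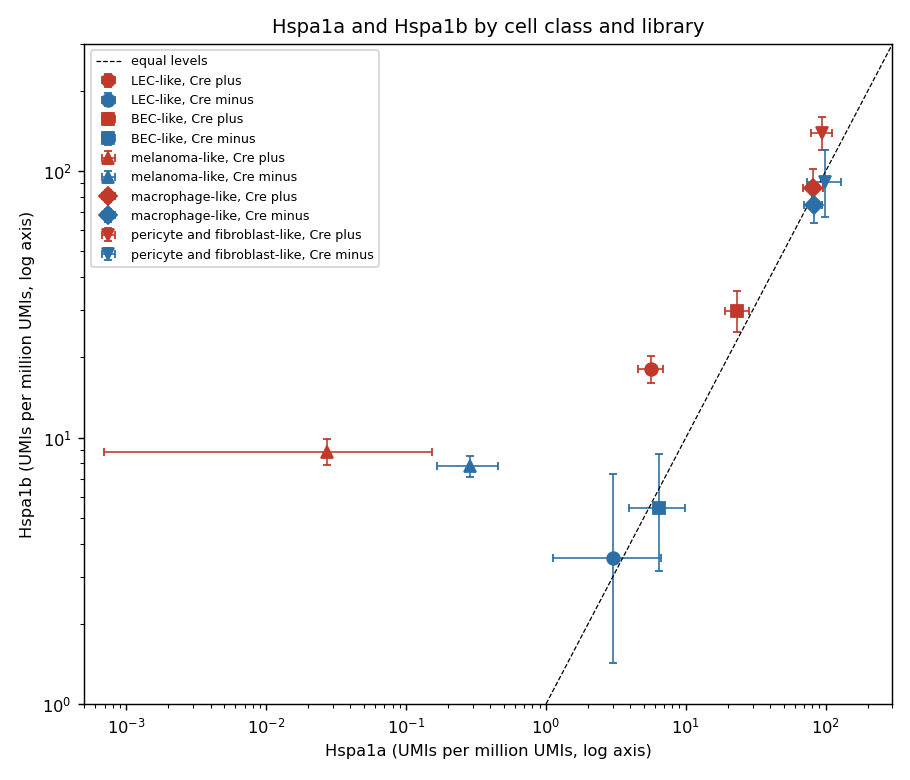
Hspa1b against Hspa1a level in UMIs per 1000000 UMIs, both on log axes, with 1 point for each cell class (shape) and library (color), bars giving 95% counting intervals and the dashed line equal levels. Cre plus LEC-like barcodes lie above the line at 5.64 CPM of Hspa1a and 18.0 CPM of Hspa1b, while both melanoma-like points, with 0.0273 CPM in Cre plus against 0.286 CPM in Cre minus, lie far to the left of it.

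The share of barcodes with a UMI of the inducible pair differed widely between classes. Hspa1b was seen in 24 of 31 pericyte and fibroblast-like barcodes in Cre plus against 8 of 21 in Cre minus. In LEC-like barcodes 12.7% [10.5, 15.2] had an Hspa1b UMI in Cre plus against 2.34% [0.763, 5.37] in Cre minus, at median depths of 14011 and 5777.5 UMIs. For Hspa1a the shares were 3.70% in Cre plus against 0.935% in Cre minus. Melanoma-like barcodes, where Hspa1a was nearly absent, had an Hspa1a UMI in 0.205% of Cre plus and 0.973% of Cre minus barcodes, at median depths of 18873 and 17657 UMIs. The depths of these classes differ, and per 1000000 UMIs Hspa1a had 3.04 CPM in Cre minus LEC-like barcodes, against 0.286 CPM in Cre minus melanoma-like ones. After thinning every barcode to 2000 UMIs, Hspa1b was seen in 15 of 750 Cre plus and 0 of 206 Cre minus LEC-like barcodes. The 10% of LEC-like barcodes with most Hspa1b held 93.2% of its UMIs in Cre plus and all of them in Cre minus. Only 5 of 214 Cre minus and 103 of 811 Cre plus barcodes had an Hspa1b UMI. These high shares therefore follow from sparse counts and do not measure how uneven the gene is. Hsp90ab1, with far more UMIs, was seen in 98.9% of Cre plus and 99.5% of Cre minus LEC-like barcodes. The top 10% held 34.3% and 34.5% of its UMIs.

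The share of barcodes with Hspa1b that also had Hspa1a differed between classes. Of 30 Cre plus LEC-like barcodes with Hspa1a, 18 also had Hspa1b, and these 18 were part of 103 with Hspa1b. In pericyte and fibroblast-like Cre plus barcodes 17 had both, of 18 with Hspa1a and 24 with Hspa1b. Of the melanoma-like barcodes with Hspa1b, 1 of 66 also had Hspa1a in Cre plus against 2 of 148 in Cre minus. Few melanoma-like barcodes had Hspa1a at all, 1 in Cre plus against 8 in Cre minus, and 1 and 2 of these also had Hspa1b. Over the 446 Cre plus LEC-like barcodes rich in Malat1, Pearson's r between the CPM of Hspa1a and Hspa1b was 0.72, and over the 39 such Cre minus barcodes 0.03. In Malat1-rich BEC-like barcodes r was 0.70 over 142 Cre plus and 0.22 over 137 Cre minus barcodes. In melanoma-like ones it was -0.00 over 211 Cre plus and 0.18 over 364 Cre minus barcodes. These values share depth within a library and are descriptions of sparse counts.

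Dnajb1, the inducible HSP40 that starts the HSP70 cycle, was higher in both endothelial classes of Cre plus. It had 32.2 CPM in Cre plus against 18.7 CPM in Cre minus LEC-like barcodes (log2 ratio 0.78 [0.30, 1.30]), and 30.3 and 20.1 CPM in BEC-like barcodes (0.59 [0.15, 1.05]). Its melanoma-like levels were 54.5 CPM in Cre plus against 50.5 CPM in Cre minus. Hsph1, the HSP110 that swaps nucleotide on HSP70, had 45.0 CPM in Cre plus against 31.9 CPM in Cre minus LEC-like barcodes (0.49 [0.12, 0.89]). That direction turned when barcodes were thinned to 2000 UMIs (-0.43) and in Malat1-poor barcodes (-0.074). In BEC-like barcodes it had 26.5 CPM in Cre plus against 24.3 CPM in Cre minus (0.13 [-0.30, 0.56]). Dnajb1 and Hsph1 stayed between 18.7 and 54.5 CPM over all 5 classes, a narrow range beside that of Hspa1a.

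Hspb1 encodes HSP27, a small chaperone that holds unfolded proteins and binds actin. Its direction differed between the endothelial classes. In LEC-like barcodes it had 21.3 CPM in Cre plus against 30.4 CPM in Cre minus (log2 ratio -0.51 [-0.91, -0.09]). In BEC-like barcodes it had 130 CPM in Cre plus against 61.3 CPM in Cre minus (1.09 [0.85, 1.33]), and 45.5% of Cre plus against 25.5% of Cre minus barcodes had a UMI. In pericyte and fibroblast-like barcodes it had 458 CPM in Cre plus against 237 CPM in Cre minus (0.95 [0.67, 1.23]). Its lowest levels were in melanoma-like barcodes, with 5.21 CPM in Cre plus against 2.24 CPM in Cre minus, and macrophage-like barcodes, with 5.60 and 3.54 CPM. The summed 13 pericyte and fibroblast markers had 389 CPM in Cre plus against 13.4 CPM in Cre minus BEC-like barcodes, with 10 of 13 and 9 of 13 markers detected and Pdgfra, Dcn and Lum at 0 in both. Of the 1716 marker UMIs in Cre plus, 1638 lay in 3 barcodes, which held 66 of the 575 Hspb1 UMIs and 27 of the 235 UMIs of the HSP70 pair. Without barcodes that carry markers of other cell types, the BEC-like log2 ratio of Hspb1 was 1.07, that of Hspa1a 1.92 and that of Hspa1b 2.38. All 7 red cell markers were detected in BEC-like barcodes of both libraries, with a sum of 4815 CPM in Cre plus against 103 CPM in Cre minus, and their part in these ratios was not tested.

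Hsp90aa1, the HSP90 form that stress raises, was the most abundant stress-induced member in every class except Cre plus pericyte and fibroblast-like barcodes, where Hspb1 had 458 CPM and Hsp90aa1 430 CPM. It had 428 CPM in Cre plus against 506 CPM in Cre minus LEC-like barcodes (log2 ratio -0.24 [-0.34, -0.14]), and 251 and 257 CPM in BEC-like barcodes. Melanoma-like barcodes had 1747 CPM in Cre plus against 1607 CPM in Cre minus, well above every other gated class. Hsp90aa1 alone was 77.8% of the stress-induced UMIs in Cre plus against 85.2% in Cre minus LEC-like barcodes, and 94.2% and 94.5% in melanoma-like barcodes. The summed stress-induced level therefore follows Hsp90aa1. That sum was 550 CPM in Cre plus against 593 CPM in Cre minus LEC-like barcodes (-0.11 [-0.20, -0.02]), while without Hsp90aa1 and Hspb1 its log2 ratio was 0.82. In BEC-like barcodes the sum was 491 CPM in Cre plus against 375 CPM in Cre minus (0.39 [0.29, 0.49]).

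**Figure D2:**
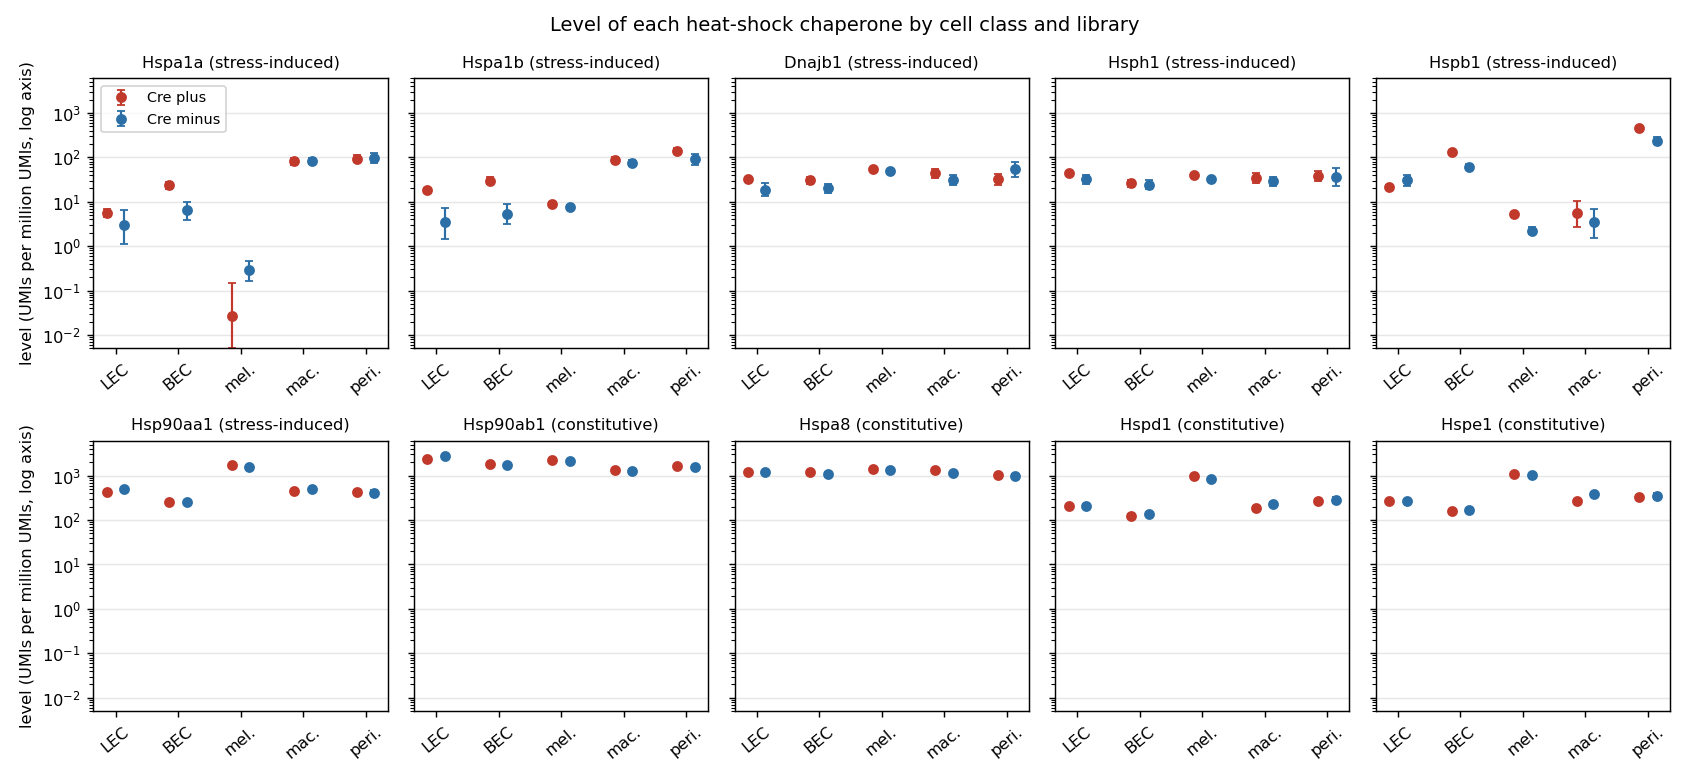
Level of each of the 10 genes in UMIs per 1000000 UMIs (log axis) by cell class (LEC-like, BEC-like, melanoma-like, macrophage-like, and pericyte and fibroblast-like), Cre plus left and Cre minus right, with 95% counting intervals (the lowest one ends at the axis). Hspa1a spans from 0.0273 to 98.2 CPM, whereas Hspa8 lies between 989 and 1393 CPM in all 10 combinations.

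In both endothelial classes the log2 ratios of the constitutive members lay between -0.18 and 0.16. Hspa8, the HSP70 of unstressed cells, had 1183 CPM in Cre plus against 1200 CPM in Cre minus LEC-like barcodes (log2 ratio -0.02 [-0.08, 0.04]). In BEC-like barcodes it had 1225 CPM in Cre plus against 1093 CPM in Cre minus (0.16 [0.10, 0.23]). Hsp90ab1, the HSP90 form made at all times and the most abundant of the 10 genes in every class but Cre plus macrophage-like barcodes, had 2384 CPM in Cre plus against 2710 CPM in Cre minus LEC-like barcodes (-0.18 [-0.23, -0.14]). Its BEC-like levels were 1796 CPM in Cre plus against 1750.1 CPM in Cre minus. The 4 constitutive genes together took 0.404% of UMIs in Cre plus against 0.439% in Cre minus LEC-like barcodes, and 0.570% and 0.541% in melanoma-like barcodes.

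Hspd1 (HSP60) and Hspe1 (HSP10) build the mitochondrial folding chamber. Hspd1 had 203 CPM in Cre plus against 208 CPM in Cre minus LEC-like barcodes, and Hspe1 had 268 and 267 CPM. In BEC-like barcodes Hspd1 had 125 CPM in Cre plus against 137 CPM in Cre minus, and Hspe1 160 and 171 CPM. Neither ratio left out 0 in either endothelial class. Melanoma-like barcodes had far more, with 971 CPM of Hspd1 in Cre plus against 863 CPM in Cre minus, and 1090.4 and 1028 CPM of Hspe1. In macrophage-like barcodes Hspe1 was lower in Cre plus, with 273 CPM against 379 CPM in Cre minus (log2 ratio -0.47 [-0.64, -0.31]).

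Cycling barcodes, those with at least 0.1% of UMIs from proliferation markers, carried more of the mitochondrial pair and of Hsp90aa1. Among Cre plus LEC-like barcodes, Hsp90aa1 had 556 CPM in 171 cycling and 380 CPM in 640 other barcodes, and Hspd1 had 244 and 187 CPM. The Cre minus LEC-like barcodes showed the same order, with 730 CPM of Hsp90aa1 in 34 cycling and 455 CPM in 180 other barcodes. Melanoma-like barcodes did so as well, with 2031 CPM of Hsp90aa1 in cycling and 1536 CPM in other Cre plus barcodes, and 1908 and 1448 CPM in Cre minus. Hspb1 ran the other way in LEC-like barcodes, with 15 CPM in cycling and 23.7 CPM in other Cre plus barcodes. Cycling barcodes were 21.1% of Cre plus and 15.9% of Cre minus LEC-like barcodes.

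Paired forms were also read against each other within a library, which does not depend on scaling. Hsp90aa1 had 17.9 UMIs per 100 Hsp90ab1 UMIs in Cre plus against 18.7 in Cre minus LEC-like barcodes, and 14.0 and 14.7 in BEC-like barcodes. In melanoma-like barcodes the values were 77.7 [76.9, 78.5] in Cre plus against 73.3 [72.7, 73.9] in Cre minus. The inducible HSP70 pair had 2.0 [1.81, 2.21] UMIs per 100 Hspa8 UMIs in Cre plus against 0.549 [0.292, 0.941] in Cre minus LEC-like barcodes. In BEC-like barcodes it had 4.34 [3.80, 4.95] in Cre plus against 1.08 [0.760, 1.49] in Cre minus. Over all barcodes the intervals of the libraries did not overlap in either endothelial class. In melanoma-like barcodes the pair had 0.638 per 100 Hspa8 UMIs in Cre plus against 0.612 in Cre minus, and in pericyte and fibroblast-like barcodes 22.3 and 19.1. Among Malat1-rich LEC-like barcodes the intervals overlapped, with 2.35 [2.12, 2.60] in Cre plus against 1.49 [0.739, 2.68] in Cre minus. They overlapped in Malat1-poor LEC-like barcodes too, with 0.615 [0.398, 0.909] and 0.123 [0.0149, 0.444]. Malat1-rich BEC-like barcodes had 4.68 [4.08, 5.33] and 1.43 [1.002, 1.97], without overlap, and Malat1-poor ones had no UMI of the pair.

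**Figure D3:**
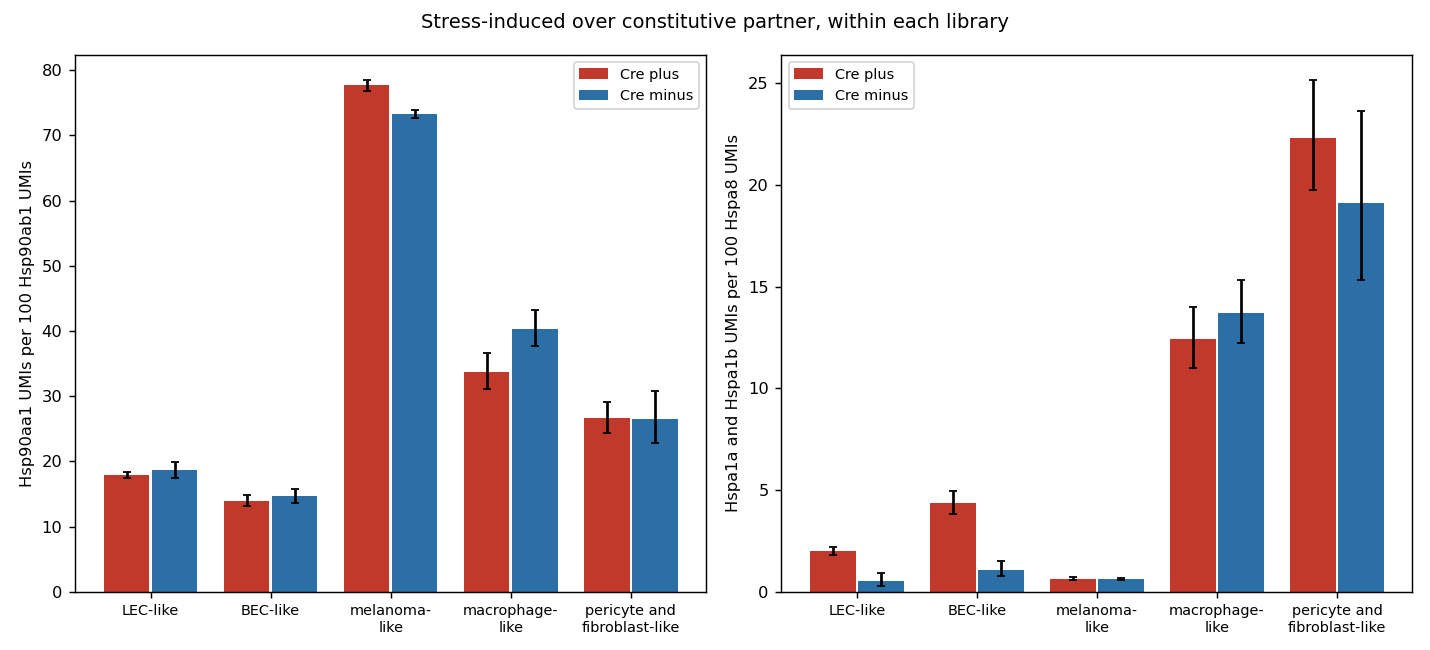
UMIs of Hsp90aa1 per 100 UMIs of Hsp90ab1 (left) and of Hspa1a and Hspa1b per 100 UMIs of Hspa8 (right) by cell class, Cre plus beside Cre minus, bars with 95% counting intervals. The HSP90 ratio peaks in melanoma-like barcodes at 77.7 in Cre plus against 73.3 in Cre minus, and the HSP70 ratio in pericyte and fibroblast-like barcodes at 22.3 and 19.1.

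The counts of members past 1.5-fold were set against all genes with at least 50 summed UMIs in the same class. In LEC-like barcodes 27.7% of 11278 genes were past 1.5-fold, with 25.0% higher and 2.68% lower in Cre plus. The median log2 ratio of all genes there was 0.29, and relative to it the 4 constitutive members and Hsp90aa1 and Hspb1 were lower in Cre plus. Of the 6 stress-induced members, 3 (Hspa1a, Hspa1b and Dnajb1) were over 1.5-fold higher and 0 lower, with a median log2 ratio of 0.64, while 0 of the 4 constitutive members were past 1.5-fold, with a median of -0.03. In BEC-like barcodes 11.4% of 9534 genes were past 1.5-fold, 6.29% higher and 5.14% lower in Cre plus, and 4 of 6 stress-induced members (Hspa1a, Hspa1b, Dnajb1 and Hspb1) were higher, with a median of 0.84 against -0.01 over all genes. In melanoma-like barcodes 5.16% of 13456 genes were past 1.5-fold, 2.70% higher and 2.47% lower in Cre plus, and of the 9 members with at least 50 UMIs only Hspb1 was. In macrophage-like barcodes 19.6% of genes were past 1.5-fold, 11.2% higher and 8.42% lower, and 0 of the 9 members measured were. In pericyte and fibroblast-like barcodes 21.3% of genes were, 9.32% higher and 12.0% lower, and of the 10 members Hspa1b and Hspb1 were higher and Dnajb1 lower in Cre plus.

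Malat1, a long noncoding RNA kept in the nucleus, took at least 0.1% of UMIs in 446 Cre plus (55.0%) and 39 Cre minus (18.2%) LEC-like barcodes, so the classes differed in this measure between the libraries. Among Malat1-rich LEC-like barcodes Hspb1 had 21.4 CPM in Cre plus against 26.2 CPM in Cre minus, and Hspa1b had 20.3 CPM in Cre plus against 5.94 CPM in Cre minus (log2 ratio 1.77 [0.53, 3.40]). Dnajb1 had 34.0 and 16.6 CPM (1.03 [0.27, 1.91]). Hspa1a, with 6.33 CPM in Cre plus against 7.13 CPM in Cre minus, was not higher there. Hspa8 had 1131 and 880 CPM (0.36 [0.26, 0.47]) and Hspe1 249 and 178 CPM (0.48 [0.24, 0.73]), both higher in Cre plus. The share of genes past 1.5-fold in this stratum was 26.2%, 11.4% higher and 14.8% lower in Cre plus, with 2 of 10 members (Hspa1b and Dnajb1) higher.

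In Malat1-poor LEC-like barcodes Hspa1b had 19 UMIs in Cre plus against 2 in Cre minus, and Hspa1a 6 and 0. The 56 Cre plus and 94 Cre minus Malat1-poor BEC-like barcodes had no UMI of Hspa1a or Hspa1b. In these barcodes Hspb1 had 109 CPM in Cre plus against 107 CPM in Cre minus, beside 132 and 50.7 CPM in the Malat1-rich ones (log2 ratio 1.38 [1.10, 1.67]). The part that the Malat1 difference has in the LEC-like ratios was not tested. The sums of both lists in LEC-like barcodes turned to higher in Cre plus among Malat1-rich barcodes, with log2 ratios of 0.15 for the stress-induced and 0.22 for the constitutive sum.

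**Figure D4:**
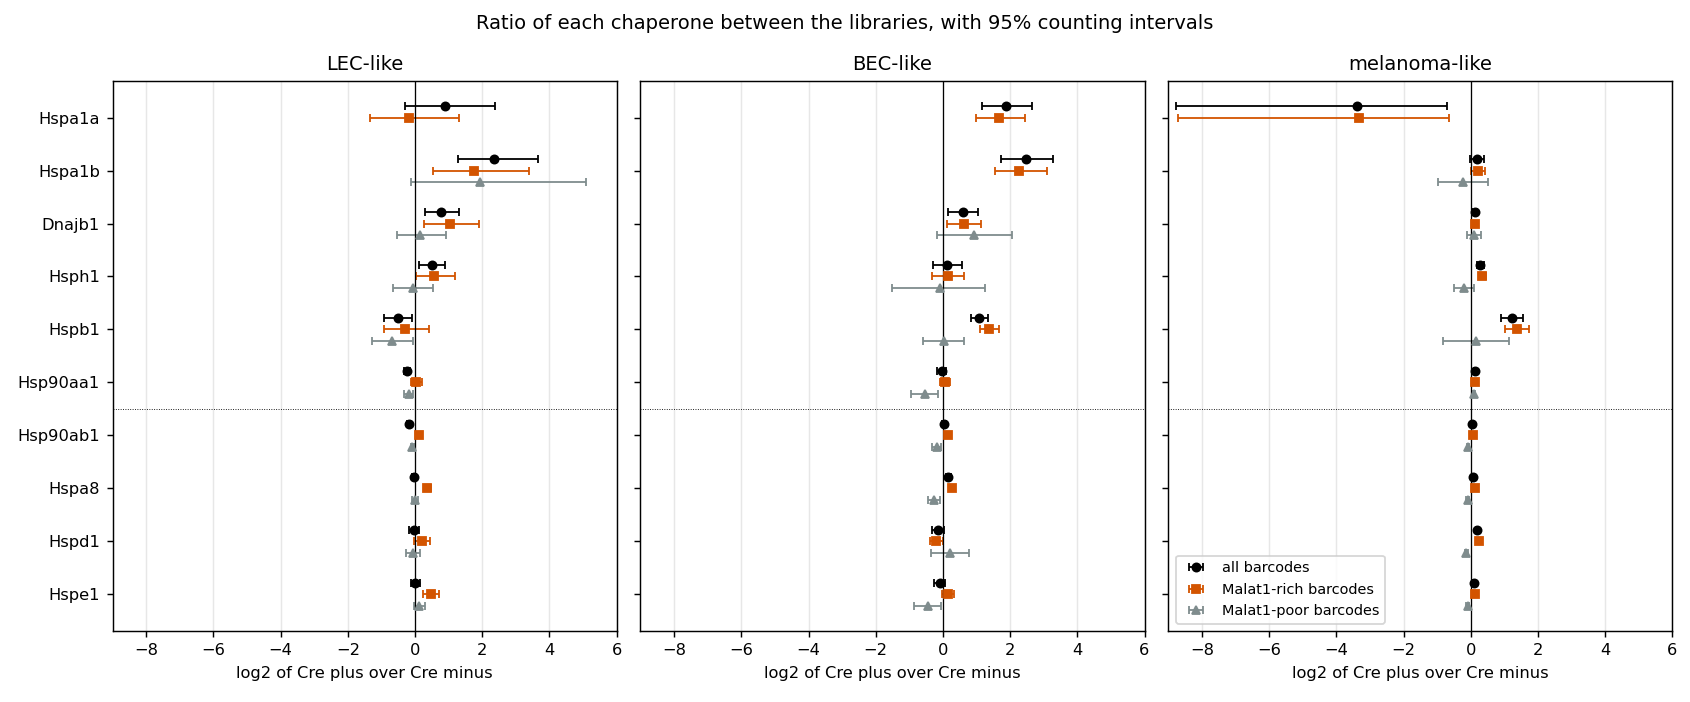
Log2 ratio of Cre plus over Cre minus for each of the 10 genes in LEC-like, BEC-like and melanoma-like barcodes, over all barcodes and over Malat1-rich and Malat1-poor ones, with 95% counting intervals (points are missing where a library had 0 UMIs). Hspa1b is at 2.35 in LEC-like and 2.46 in BEC-like barcodes, and the constitutive genes below the dotted line lie between -0.18 and 0.17 over all barcodes.

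The immediate-early genes, transcription factors such as Fos that cells switch on within minutes of a disturbance, were higher in the same classes as Hspa1b. Their sum over 20 listed genes was 1804 CPM in Cre plus against 962 CPM in Cre minus LEC-like barcodes, and 1694 and 1028 CPM in BEC-like barcodes. It was 1324 CPM in Cre plus against 1235 CPM in Cre minus melanoma-like barcodes, 4900.4 and 4869 CPM in macrophage-like barcodes, and 2848 and 1689 CPM in pericyte and fibroblast-like barcodes. In LEC-like barcodes 14 of the 16 measured were over 1.5-fold higher in Cre plus, as were 25.0% of all genes. The count was 12 of 17 for BEC-like barcodes, beside 6.29% of all genes. Fosb had 32.3 CPM in Cre plus against 1.52 CPM in Cre minus LEC-like barcodes, Fos 66.3 and 15.2 CPM, and Klf2 222 and 83.1 CPM. Over 446 Malat1-rich Cre plus LEC-like barcodes, r between the immediate-early sum and the HSP70 pair was 0.19, and over 39 Cre minus ones 0.10. In Malat1-rich BEC-like barcodes r was 0.36 in Cre plus against 0.16 in Cre minus, and in melanoma-like ones 0.16 and 0.14. Among Malat1-rich barcodes the sum was 1999.6 CPM in Cre plus against 1548 CPM in Cre minus LEC-like barcodes, and 1741 against 989 CPM in BEC-like ones. In these LEC-like barcodes 5 of 16 measured genes were over 1.5-fold higher and 1 lower in Cre plus, beside 11.4% and 14.8% of all genes. In Malat1-rich BEC-like barcodes 14 of 17 were over 1.5-fold higher and 0 lower, beside 8.74% and 9.99% of all genes. Malat1-poor LEC-like barcodes had a sum of 816 CPM in Cre plus against 527 CPM in Cre minus. The 14 measured genes there had a median log2 ratio of 0.53, beside 0.17 over all genes. In Malat1-poor BEC-like barcodes the sum was 1112 CPM in Cre plus against 1194 CPM in Cre minus, with 0 of 9 genes over 1.5-fold higher and 1 lower, beside 7.48% and 8.89% of all genes. The part of these genes in the chaperone differences was not tested.

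Partners of the members were read from lists chosen by role. Of the HSF1 and feedback genes, 2 of 7 measured were over 1.5-fold higher in Cre plus LEC-like barcodes and 0 lower, where 25.0% of all genes were higher, and their median log2 ratio was 0.30 beside 0.29 over all genes. Hsf2, a second heat-shock factor, had 20.3 CPM in Cre plus against 10.6 CPM in Cre minus (0.93 [0.29, 1.64]). Bag3, an HSF1 target that links HSP70 to autophagy, had 48.1 and 28.9 CPM (0.74 [0.35, 1.15]). Among Malat1-rich LEC-like barcodes 0 of 7 measured genes of this list passed 1.5-fold, beside 26.2% of all genes. Their median there was 0.33, beside -0.08 over all genes. In Malat1-poor ones 0 of 5 passed it, with a median of -0.06 beside 0.17.

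Of 20 HSP40 co-chaperones 3 were over 1.5-fold higher in Cre plus LEC-like barcodes, a share below the 25.0% of all genes, with a median of 0.33. Dnajb4 had 27.7 CPM in Cre plus against 10.6 CPM in Cre minus (1.38 [0.75, 2.09]), Dnajb9, an HSP40 of the endoplasmic reticulum, 22.0 and 12.2 CPM (0.86), and Dnajb5 17.3 and 10.6 CPM (0.70). Of 15 other HSP70 and exchange factors 4 were over 1.5-fold higher, near the 25.0% of all genes, and 1 lower (median 0.33), among them Hspa12a at 1.24, Bag4 at 0.90 and Bag5 at 0.63 on the log2 scale. The other two, Bag2 at 0.88 [-0.30, 2.36] and Bag1 at -0.61 [-0.75, -0.47], are named to complete the count, after their values were seen. None of the 16 HSP90 co-chaperones (median 0.09) passed 1.5-fold, against 27.7% of all genes. Among them Ptges3 (p23), which closes the HSP90 cycle, had a log2 ratio of 0.46 and Fkbp5 0.38. These counts changed with the Malat1 stratum. Among Malat1-rich LEC-like barcodes 2 of 16 HSP90 co-chaperones, 3 of 20 HSP40 co-chaperones and 2 of 15 other HSP70 factors were over 1.5-fold higher. Of all genes there 11.4% were. In that stratum 1 HSP40 co-chaperone was lower, beside 14.8% of all genes. In Malat1-poor ones 2 of 16 HSP90 co-chaperones were higher, with a median of 0.09 beside 0.17 over all genes.

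The chaperonin TRiC and its helper prefoldin, which fold actin and tubulin, had 0 of 14 genes past 1.5-fold in LEC-like barcodes (median -0.02). Of all genes there, 27.7% were past it, and their median was 0.29. Vbp1 was at 0.41, Pfdn2 at 0.34 and Pfdn5 at -0.29. Of 14 chaperones of the endoplasmic reticulum and mitochondria 0 were past 1.5-fold (median 0.19). Hspa5 (BiP), the HSP70 of the endoplasmic reticulum, had 542 CPM in Cre plus against 384 CPM in Cre minus (0.49 [0.39, 0.60]), Clpp 0.38 and Canx -0.27. Of 3 measured small heat-shock proteins 1 was over 1.5-fold higher, beside 25.0% of all genes. This was Cryab, with 10.3 CPM in Cre plus against 4.05 CPM in Cre minus (1.35 [0.34, 2.58]) from 176 and 8 UMIs. Among Malat1-rich LEC-like barcodes 2 of 3 small heat-shock proteins were over 1.5-fold higher, beside 11.4% of all genes. There 1 of 14 chaperones of the endoplasmic reticulum and mitochondria and 0 of 14 TRiC and prefoldin genes were higher.

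In BEC-like barcodes none of the 7 HSF1 and feedback genes, 20 HSP40 co-chaperones, 12 other HSP70 factors, 16 HSP90 co-chaperones, 2 small heat-shock proteins or 14 TRiC and prefoldin genes measured passed 1.5-fold, against 11.4% of all genes. Of the 14 chaperones of the endoplasmic reticulum and mitochondria 1 was over 1.5-fold lower in Cre plus, and 11 of 14 were below 0, with a median of -0.26. The 1 gene, named after its values were seen, was Sdf2l1, with 32.8 CPM in Cre plus against 49.5 CPM in Cre minus (-0.59 [-0.93, -0.26]). Hspa5 had 543 CPM in Cre plus against 666 CPM in Cre minus BEC-like barcodes (-0.30 [-0.38, -0.21]). The direction of these genes turned with the Malat1 stratum. In Malat1-rich BEC-like barcodes 18.7% of all genes were past 1.5-fold, 8.74% higher and 9.99% lower in Cre plus, and 5 of the 14 chaperones were lower and 0 higher (median -0.43). In Malat1-poor ones 16.4% of all genes were past 1.5-fold, 7.48% higher and 8.89% lower, and 6 of the 7 chaperones measured were higher (median 0.95). Hspa5 had 564 CPM in Cre plus against 797 CPM in Cre minus Malat1-rich BEC-like barcodes (-0.50 [-0.58, -0.41]), and 277 and 99.0 CPM in Malat1-poor ones (1.48 [0.99, 1.98]). In melanoma-like barcodes none of the genes of these 7 lists passed 1.5-fold, against 5.16% of all genes, and the list medians lay between -0.06 and 0.12.

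**Figure D5:**
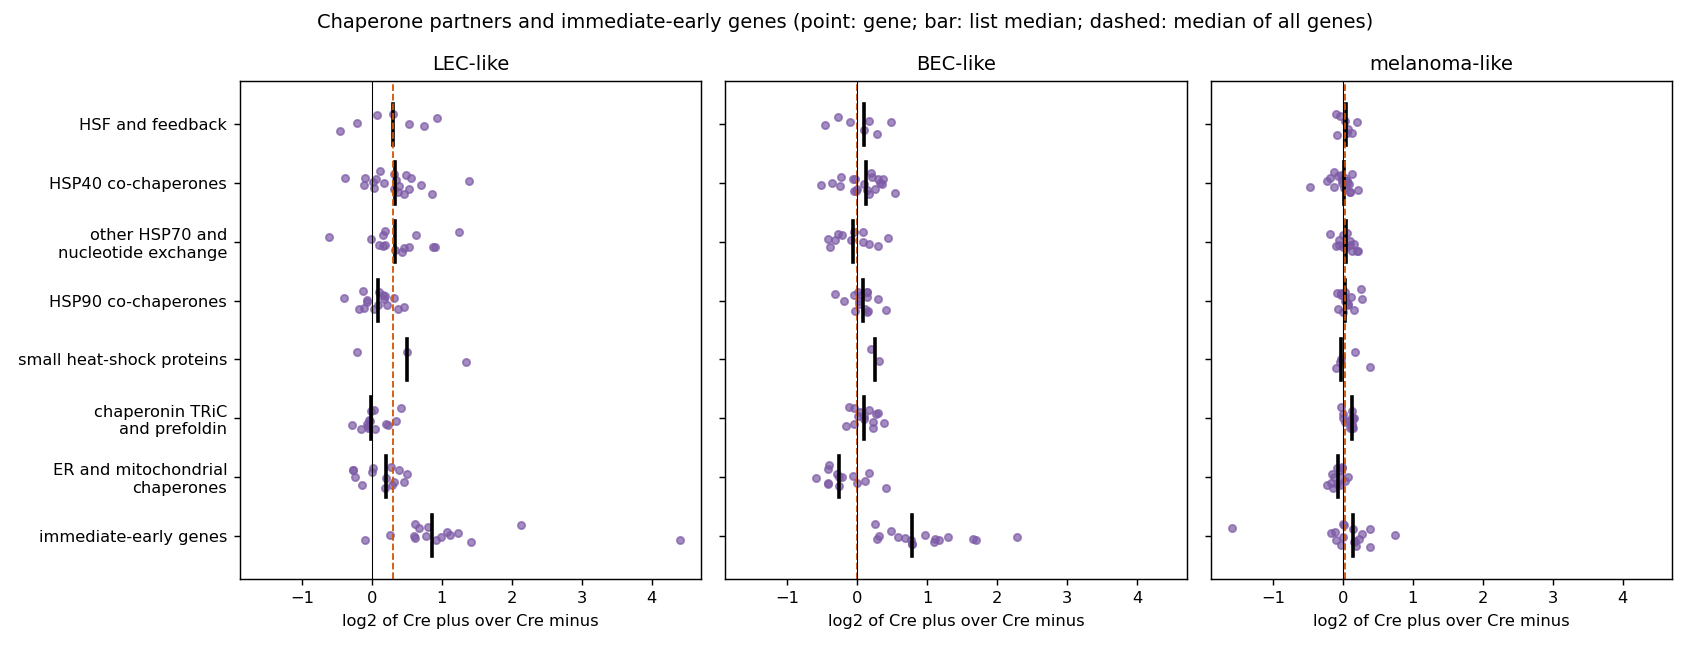
Log2 ratio of Cre plus over Cre minus for each measured gene (point) of 8 lists in LEC-like, BEC-like and melanoma-like barcodes, with list medians (black bars) and the median of all genes (dashed). Immediate-early genes have medians of 0.86 in LEC-like and 0.79 in BEC-like barcodes, while the chaperone partner lists stay within 0.50 of 0 in all 3 classes.

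Across 15 sums, each of 1 class, library and Malat1 stratum, the members fell into sets with unlike patterns of log2(CPM + 1). Hsp90aa1 was most like Hspd1 (r = 0.98) and Hspe1 (0.96), and Hspd1 and Hspe1 reached 0.96 with each other. Hspa1a was like Hspa1b (0.88) and ran against Hsp90ab1 (-0.81). Hspb1 ran against Hsp90aa1 (-0.76). Among 9082 genes, those closest to the summed stress-induced level were Thyn1 (0.97), Ppa2 (0.97), Gm21887 (0.96), Oat (0.96) and Etfa (0.96), and those closest to the HSP70 pair were Cdk14 (0.95), Elmo2 (0.93), Parp8 (0.90), Rmi1 (0.90) and Dse (0.89). The sums share libraries and classes, so these are descriptions.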

How the data were processed

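Single-cell 3′ libraries (kit v3.1) of sorted tumor cells were deposited as raw UMI counts per gene and barcode, whole numbers per the file headers. Cell Ranger 7.0.0 and mm10 are named in the submitters' processing notes, and the sources used here name no gene annotation. Groups are the genotype labels. The members and lists were chosen with earlier results of these data known.

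Barcodes were kept from 500 genes, with mitochondrial UMIs under 10%. An endothelial barcode had at least 0.1% of UMIs from pan-endothelial markers and under 0.2% from melanoma markers. It was LEC-like from 0.1% of LEC markers and otherwise BEC-like from 0.1% of BEC markers. A barcode was melanoma-like from 0.2% of melanoma markers with under 0.1% pan-endothelial, macrophage-like or pericyte and fibroblast-like from 0.5%, and T and NK-like from 0.1%. At least 3 markers had to be detected, and for LEC-like barcodes LEC and pan-endothelial markers were counted together. The remaining 193 Cre plus and 180 Cre minus barcodes stayed ungated. These percentages were set after marker shares were seen. No doublet caller was run. Barcodes that reached both the 0.2% melanoma and the 0.1% pan-endothelial limit fell outside the endothelial and melanoma-like classes. Barcodes with less of the other type's markers stayed in. Classes with under 20 barcodes in a library were left out of the comparisons.

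UMIs were summed per class and library. Levels have exact Poisson, ratios exact conditional binomial and shares exact Clopper-Pearson 95% intervals (scipy 1.17.1, numpy 2.4.6, pandas 2.3.3), which cover counting error only. The ratio script was tested on simulated data. A gene counted as measured with at least 50 summed UMIs, and 1.5-fold is a rule of size, not a test. All 10 members are named. From each other list, up to 3 genes with the largest ratio in LEC-like barcodes whose interval left out 0 are named, and the 5 genes most alike by Pearson's r among those that reached 10 CPM in a sum. Some genes that this rule names are not reported here. Thinning took 2000 UMIs per barcode. Alternatives covered filters, classes from Leiden clusters (scanpy 1.11.5, leidenalg 0.10.2), scaling, weighting, depth, strata and shorter lists. Protein sequences were not used here.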

Additional observations from a re-analysis of the deposited data

Results flagged for a closer look

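The differences in log2 ratio between cell classes below were not tested, since each class has 1 library per genotype and the ratios of both classes come from the same libraries. The stress-induced sum had a log2 ratio in LEC-like barcodes that differed by -0.50 from that in BEC-like and by -0.24 from that in melanoma-like barcodes. For the constitutive sum the LEC-like ratio differed by -0.19 from the BEC-like and by -0.20 from the melanoma-like ratio. These sums were lower in Cre plus LEC-like barcodes and higher in Cre plus BEC-like and melanoma-like ones, with intervals that left out 0 each time.

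Hspb1 stood apart in LEC-like barcodes, with a difference in log2 ratio of -1.60 from BEC-like and of -1.73 from melanoma-like barcodes. Hsp90aa1 differed by -0.36 and Hsp90ab1 by -0.22 between LEC-like and melanoma-like barcodes. Hspa1a differed by 5.26 between BEC-like and melanoma-like barcodes, where the melanoma-like ratio rests on 1 UMI in Cre plus.

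The T and NK-like barcodes, of which there were 15 Cre plus and 16 Cre minus ones, were too few for the comparisons. Hspa1a and Hspa1b together had 46.3 CPM [29.7, 68.9] in Cre plus, from 24 UMIs in 5 barcodes, against 380 CPM [330, 436] in Cre minus, from 206 UMIs in 8 barcodes. The order of the libraries is the reverse of that in LEC-like and BEC-like barcodes.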

How the results depend on the processing

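Of 293 log2 ratios of single members under the alternatives, 207 stayed within the interval of the main value. Another 13 changed sign from a main value whose interval held only that sign. The other 73 left the interval. Changes of sign where the main interval held both signs were not counted apart. All of the ratios of Hspa1b that could be computed in LEC-like barcodes lay between 1.77 and 3.67, and in BEC-like barcodes between 2.27 and 5.08. Hspb1 ranged from -0.79 to -0.29 in LEC-like and from 0.03 to 1.42 in BEC-like barcodes. The main log2 ratios of the stress-induced and constitutive sums were -0.11 and -0.12 in LEC-like, 0.39 and 0.07 in BEC-like, and 0.13 and 0.08 in melanoma-like barcodes.

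With classes from Leiden clusters the constitutive ratios were -0.086 in LEC-like, 0.031 in BEC-like and 0.069 in melanoma-like barcodes. Scaled to the median gene, the stress-induced and constitutive ratios were -0.39 and -0.40 in LEC-like and 0.10 and 0.049 in melanoma-like barcodes. As means over barcodes they gave a constitutive -0.18 in LEC-like, 0.65 and 0.022 in BEC-like, and 0.17 and 0.037 in melanoma-like barcodes, with Hspe1 at -0.035 there. Thinned to 2000 UMIs they were -0.35 and -0.16 in LEC-like, 0.57 and 0.12 in BEC-like, and 0.22 and 0.066 in melanoma-like barcodes, where Hspe1 was -0.059, and Hsph1 turned to -0.43 in LEC-like barcodes. Malat1-rich barcodes alone gave 0.15 and 0.22 in LEC-like barcodes, with Hsp90aa1 at 0.042 and Hsp90ab1 at 0.13, then 0.51 and 0.17 in BEC-like, and a constitutive 0.12 in melanoma-like barcodes. Malat1-poor barcodes gave a constitutive -0.037 and Hsph1 at -0.074 in LEC-like, and -0.25 and -0.22 with Hspa8 at -0.28 in BEC-like barcodes. Among melanoma-like ones they gave 0.083 and -0.10, with Hsph1 at -0.19, Hsp90ab1 at -0.093, Hspa8 at -0.092, Hspd1 at -0.13 and Hspe1 at -0.086. Without cycling barcodes the ratios were 0.55 and 0.18 in BEC-like and 0.10 and 0.033 in melanoma-like barcodes, with Hspa8 at -0.010. Without barcodes that carried markers of other types the constitutive ratio was 0.031 in BEC-like barcodes, and likewise when Mrc1 was not counted as a macrophage marker, a choice made after seeing the data. With shorter lists the stress-induced ratios were 0.82 in LEC-like, 0.97 in BEC-like and 0.18 in melanoma-like barcodes, and the constitutive one 0.051 in melanoma-like barcodes. For all of these the cause was not tested.

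Hspa1a and Hspa1b had too few UMIs for a value in Malat1-poor BEC-like barcodes, Hspa1b in thinned LEC-like barcodes, and Hspa1a in Malat1-poor LEC-like, LEC-like without mixed, and thinned or Malat1-poor melanoma-like barcodes. No paired analysis was possible because each genotype has 1 library and no replicate number. Depth limits the HSP70 pair in Cre minus LEC-like barcodes, which held 13 UMIs of both genes.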

Other observations

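Barcodes with at least 10% mitochondrial UMIs, outside the comparisons, held less of the constitutive members. Among 49 Cre plus and 23 Cre minus barcodes of this kind with LEC markers, Hsp90ab1 had 1368.5 and 1273 CPM, Hspa8 429 and 570.4 CPM, and Hspe1 82.7 and 119 CPM. The corresponding levels in kept Cre plus and Cre minus LEC-like barcodes were 2384 and 2710 CPM for Hsp90ab1, 1183 and 1200 CPM for Hspa8, and 268 and 267 CPM for Hspe1. Hspa1a and Hspa1b together had 1 UMI in these Cre plus and 0 in these Cre minus barcodes, where 0 allows up to 48.9 CPM. Melanoma-like barcodes of this kind, 60 in Cre plus and 168 in Cre minus, had 358 and 331 CPM of Hspd1, against 971 and 863 CPM in the kept ones.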
